A study of Homo sapiens with 16 samples.

Results

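The MAPK feedback genes described here are DUSP4, DUSP5, DUSP6, SPRY1, SPRY2, SPRY4, SPRED1, SPRED2, ETV4 and ETV5, 10 genes of the 57820 listed in the count tables. They were named by symbol, by a rule that uses no measured value, but earlier results of these data were known when they were chosen. Each symbol was matched to 1 Ensembl identifier. Bulk RNA-Seq was performed on sublines of MDA-MB-231 and MDA-MB-436, both established cell lines of triple-negative breast cancer (TNBC) with a mesenchymal phenotype. Each line had been stably transfected with 7TGP, a plasmid in which Tcf/Lef binding sites drive eGFP and which confers puromycin resistance. Repeated FACS of each line on eGFP gave 1 Wnt-positive (7TGP-POS) and 1 Wnt-negative (7TGP-NEG) subline, so each state is represented by a single sorted pool per cell line, and POS and NEG cells alike carry the plasmid and had been selected with puromycin. The sublines were kept in low serum (0.5% FBS, day 3) or standard serum (10% FBS, day 6), with 2 biological replicates in each of the 8 groups.

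In the MAPK cascade, receptor tyrosine kinases act through RAS, RAF and MEK on the kinase ERK, and ERK induces genes whose products restrain the cascade. DUSP4, DUSP5 and DUSP6 are dual-specificity phosphatases that remove the activating phosphates from MAP kinases, DUSP6 in the cytoplasm and DUSP4 and DUSP5 in the nucleus. Sprouty (SPRY) and SPRED proteins act upstream, on the path from receptors to RAS and RAF, and SPRED proteins bring neurofibromin to the membrane. ETV4 and ETV5 are ETS transcription factors of the PEA3 group, whose transcripts are commonly read as an output of FGF and ERK signaling. RNA levels of these genes say nothing of phosphorylated ERK, which was not measured in these libraries.

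The libraries held 27918418 to 32667756 counts on genes in low serum and 31827130 to 46044073 in standard serum. A gene was tested in a serum condition where its 8 libraries together held 10 counts or more. All 10 feedback genes passed, among 16069 (low serum) and 15414 (standard serum) protein-coding genes tested, and none had fewer than 131 counts in any library. According to the methods, low serum libraries were depleted of ribosomal RNA and standard serum libraries were selected for polyadenylated RNA, on different sequencers, although the labels name 1 kit for all. Serum, days in culture, preparation and sequencing cannot be told apart, so levels in both serum conditions are given side by side with no test. The methods also give a different medium for each cell line while the labels give the same one, so the cell line cannot be told apart from its medium. VIM, ZEB1 and FN1 were present in all libraries, CDH1 stayed at or below 0.15 TPM, and the N-cadherin gene CDH2 was at 100.1 to 187 TPM in MDA-MB-436 but at most 0.66 TPM in MDA-MB-231. The 7 listed epithelial and receptor markers, CDH1 included, summed to 65.4 to 172 TPM in the MDA-MB-231 libraries and 10.6 to 23.0 TPM in the MDA-MB-436 libraries. Between the NEG sublines, CLDN7, CLDN4 and EPCAM were called higher in MDA-MB-231 in both serum conditions, while CLDN3 and PGR were called lower in both. The summed level of the 5 (of 6) listed leukocyte and endothelial markers with values was at most 4.24 TPM in MDA-MB-231 and 0.29 TPM in MDA-MB-436. In bulk RNA, fewer cells that express a gene and less RNA per cell cannot be told apart.

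Levels of 1 gene across libraries are in CPM, the gene's count scaled to a common library size. Levels between genes, and those of the cell type markers, are in TPM, which is also scaled by gene length. A gene was called where its adjusted p (Benjamini-Hochberg over all tested genes) from edgeR's quasi-likelihood test was under 0.05 and its absolute log2 difference was at least 1. Errors of log2 differences are standard errors from the same fit, with n = 2 libraries per group, and p-values measure the spread between these libraries.

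The largest differences among the feedback genes lay between the cell lines. Their TPM values summed to between 1145 and 1500 in the MDA-MB-231 libraries and between 315 and 361 in the MDA-MB-436 libraries in low serum. In standard serum the sums were 2641 to 2810 and 373 to 516. In MDA-MB-231, DUSP6 and DUSP4 had the highest TPM of the 10 genes in every group and ranked between 114 and 213 of 19404 protein-coding genes. In MDA-MB-436 the order was different: DUSP6 or SPRY1 was lowest in each group, and ETV4 or DUSP5 was highest. DUSP6 ranked between 9956 and 11097 there.

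**Figure D1:**
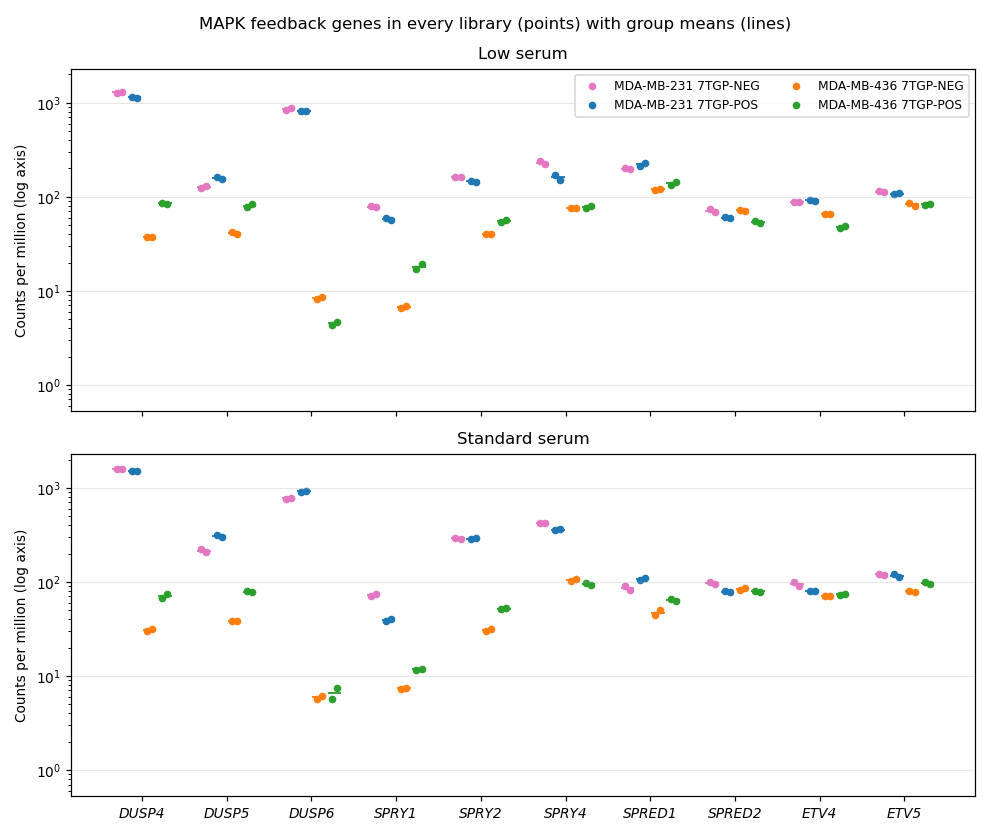
CPM (log axis) of the 10 feedback genes in each library (points, 2 per group) with the mean of each group (short lines), in low serum (top) and standard serum (bottom). DUSP6 lay at 767 CPM or higher in all MDA-MB-231 libraries and at 8.59 CPM or lower in all MDA-MB-436 libraries, whereas SPRED2 levels lay close together in all groups.

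Between the 7TGP-NEG sublines, 6 of the 10 feedback genes were called higher in MDA-MB-231 in low serum, where 20.5% of all tested genes were called in that direction. In standard serum 7 were called higher, beside 21.3% of all genes. Between the 7TGP-POS sublines, 7 were called higher in low serum (18.1% of all genes) and 6 in standard serum (20.8%). All 10 log2 differences were above 0 in each of these comparisons, so no feedback gene was lower in MDA-MB-231 on the scale of the main test. The median log2 difference of the 10 genes was 1.72 (NEG) and 1.13 (POS) in low serum, against 2.45 and 2.04 in standard serum, while the median of all tested genes was between -0.09 and 0.01. DUSP4, DUSP5, DUSP6, SPRY1, SPRY2 and SPRY4 were called in all 4 comparisons, SPRED1 was called between the NEG sublines in standard serum, and ETV4 was called between the POS sublines in low serum. Both last calls lay near the limit. On the log2(TPM + 1) scale, where the median of all genes lay at -0.12 to -0.20 in these comparisons, only 4 of the 7 calls between POS sublines in low serum were left, and DUSP5, SPRY4 and ETV4 fell under the limit with 0.73, 0.80 and 0.69.

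**Figure D2:**
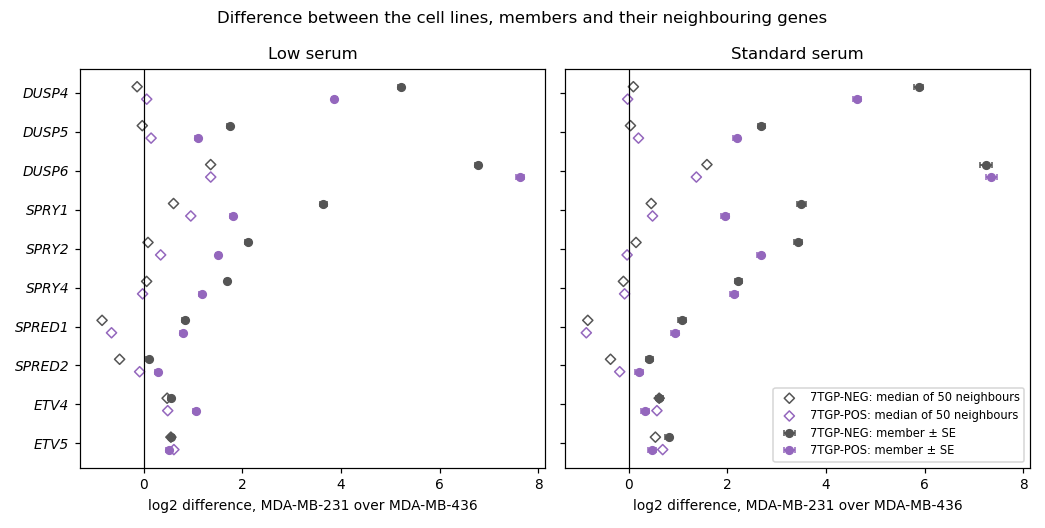
Log2 difference of MDA-MB-231 over MDA-MB-436 for the feedback genes (filled circles ± SE) and the median of the 50 nearest tested genes on the same chromosome (open diamonds), between NEG sublines (grey) and POS sublines (purple). The DUSP and Sprouty genes lay to the right of their neighbours, and ETV4 between the NEG sublines lay near its own (0.55 beside 0.48 in low serum, 0.62 beside 0.62 in standard serum).

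DUSP6 (ENSG00000139318; hg19, chromosome 12, 89741012 to 89746278, minus strand) encodes the cytoplasmic phosphatase most selective for ERK. In low serum it was at 838 and 877 CPM in MDA-MB-231 7TGP-NEG, at 824 and 822 CPM in 7TGP-POS, at 8.23 and 8.59 CPM in MDA-MB-436 7TGP-NEG, as against 4.36 and 4.69 CPM in 7TGP-POS. In standard serum the values were 767 and 781, 898 and 930, 5.71 and 6.08, and 5.69 and 7.41 CPM in the same order. Every MDA-MB-231 library lay far above every MDA-MB-436 library. The fitted difference between the NEG sublines was 109.6-fold in low serum (log2 6.78 ± 0.07, edgeR adjusted p = 1.63e-45) and 151-fold in standard serum (log2 7.24 ± 0.11, edgeR adjusted p = 1.36e-19). Between the POS sublines it was 198-fold and 162-fold. The 50 genes nearest to DUSP6 were themselves higher in MDA-MB-231, with a median log2 difference of 1.36 (low serum) and 1.58 (standard serum) between the NEG sublines, which is less than the difference of DUSP6.

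DUSP4 (ENSG00000120875; chromosome 8, 29190581 to 29208201, minus strand) encodes a nuclear phosphatase of ERK, JNK and p38. In low serum it was at 1284 and 1291 CPM in MDA-MB-231 7TGP-NEG, at 1155 and 1132 in 7TGP-POS, at 37.3 and 37.1 in MDA-MB-436 7TGP-NEG, as against 86.1 and 84.6 in 7TGP-POS. In standard serum the values were 1577 and 1567, 1511 and 1503, 30.2 and 31.4, and 67.5 and 73.5 CPM. The groups did not overlap, and within MDA-MB-436 the POS libraries were the higher ones. DUSP4 was 37.2-fold (log2 5.22 ± 0.06) and 58.9-fold (log2 5.88 ± 0.09) higher in MDA-MB-231 between the NEG sublines, and 14.6-fold and 24.7-fold higher between the POS sublines. Its neighbours on the chromosome had medians between -0.13 and 0.09.

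DUSP5 (ENSG00000138166; chromosome 10, 112257665 to 112271291, plus strand) encodes a nuclear phosphatase with a preference for ERK. Its low serum levels were 126 and 129 CPM in MDA-MB-231 7TGP-NEG, 160.4 and 155 in 7TGP-POS, 41.8 and 39.8 in MDA-MB-436 7TGP-NEG and 77.8 and 83.3 in 7TGP-POS. Standard serum levels were 221 and 209.9, 315 and 303, 38.5 and 38.8, and 79.1 and 78.0 CPM. The POS libraries lay above the NEG libraries of their own line in each serum condition, with no overlap. The difference between cell lines was 3.35-fold and 6.43-fold between the NEG sublines, and 2.14-fold and 4.55-fold between the POS sublines.

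The Sprouty genes differed less between the cell lines than DUSP6 and DUSP4 did. SPRY1 (ENSG00000164056; chromosome 4, 124317950 to 124324915, plus strand) was at 79.6 and 77.1 CPM in MDA-MB-231 7TGP-NEG, 59.6 and 56.6 in 7TGP-POS, 6.58 and 6.91 in MDA-MB-436 7TGP-NEG and 16.9 and 19.4 in 7TGP-POS in low serum. In standard serum it was at 71.3 and 74.2, 38.6 and 40.1, 7.34 and 7.51, and 11.7 and 11.9 CPM. MDA-MB-231 was thus higher throughout, and the gap was narrower between POS than between NEG sublines: 12.5-fold against 3.50-fold in low serum and 11.3-fold against 3.86-fold in standard serum.

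SPRY2 (ENSG00000136158; chromosome 13, 80910111 to 80915261, minus strand) was at 144 to 164 CPM in the 4 MDA-MB-231 libraries and at 39.8 to 56.9 CPM in the 4 MDA-MB-436 libraries in low serum. In standard serum the ranges were 285 to 292 and 30.2 to 52.3 CPM. It was 4.33-fold and 10.8-fold higher in MDA-MB-231 between the NEG sublines, in low and standard serum. SPRY4 (ENSG00000187678; chromosome 5, 141689992 to 141706020, minus strand) ranged from 151 to 238 CPM in MDA-MB-231 and from 75.8 to 79.6 CPM in MDA-MB-436 in low serum. Its standard serum ranges were 353 to 428 and 93.0 to 108 CPM, and its NEG sublines differed 3.25-fold and 4.67-fold. No library of one cell line overlapped with the other for either gene.

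SPRED1 (ENSG00000166068; chromosome 15, 38545037 to 38649450, plus strand), whose product recruits neurofibromin, ranged from 197 to 227 CPM in MDA-MB-231 and from 119 to 143 CPM in MDA-MB-436 in low serum. In standard serum the ranges were 81.6 to 109 and 44.4 to 65.8 CPM. Between the NEG sublines the log2 difference was 0.84 ± 0.05 (low serum) and 1.08 ± 0.08 (standard serum), and the latter fell to 0.98 without MDA-MB-231 7TGP-NEG replicate 1 and to 0.99 without MDA-MB-436 7TGP-NEG replicate 1, both under the limit. Its neighbours had medians of -0.84 and -0.83, in the other direction. SPRED2 (ENSG00000198369; chromosome 2, 65537985 to 65659771, minus strand) ranged from 59.7 to 73.5 CPM in MDA-MB-231 and from 53.0 to 72.1 CPM in MDA-MB-436 in low serum, and from 77.9 to 98.6 and 77.2 to 85.5 CPM in standard serum, and these ranges overlapped. It differed least between NEG sublines, by 0.10 ± 0.06 in low serum (edgeR adjusted p = 0.0960) and 0.42 ± 0.08 in standard serum (edgeR adjusted p = 6.33e-05). The sign for SPRED2 in low serum depended on the scale, since log2(TPM + 1) gave -0.29 between the NEG sublines (limma adjusted p = 0.0258), so it passed the adjusted p there, but not the fold limit, in the other direction.

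ETV4 (ENSG00000175832; chromosome 17, 41605212 to 41656988, minus strand) was at 88.2 to 91.8 CPM in MDA-MB-231 and 47.0 to 65.2 CPM in MDA-MB-436 in low serum, and at 79.9 to 98.6 and 70.8 to 74.2 CPM in standard serum. ETV5 (ENSG00000244405; chromosome 3, 185764103 to 185828107, minus strand) was at 106 to 115 and 80.0 to 85.6 CPM in low serum, and at 112 to 122 and 78.7 to 99.6 CPM in standard serum. Both were higher in MDA-MB-231 between the NEG sublines, ETV4 by 0.55 and 0.62 and ETV5 by 0.56 and 0.81 on the log2 scale (low and standard serum). Their neighbours had medians of 0.48 and 0.62 for ETV4 and 0.55 and 0.54 for ETV5.

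The sequences before the annotated start are shown for DUSP6, SPRY1 and SPRY2, the feedback genes with a RefSeq promoter entry whose levels differed more than 4-fold between the NEG sublines in both serum conditions and whose window ends at the start of the gene. RefSeq promoter entries (GRCh38) were matched for 6 of the 10 genes, in 10 windows, and each window was found exactly once in GRCh37, whose coordinates are given. The 250 bases upstream of the start are printed 5′ to 3′ on the strand of the gene, and capitals mark GGAA or its reverse complement TTCC, the core bound by ETS factors such as ETV4 and ETV5.
DUSP6, chr12:89746279-89746528, minus strand: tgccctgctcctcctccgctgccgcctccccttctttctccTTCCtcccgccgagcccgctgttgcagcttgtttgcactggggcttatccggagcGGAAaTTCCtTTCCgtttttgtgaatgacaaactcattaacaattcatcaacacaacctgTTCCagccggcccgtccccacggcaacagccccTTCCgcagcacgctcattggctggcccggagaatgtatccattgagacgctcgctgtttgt
SPRY1, chr4:124317700-124317949, plus strand: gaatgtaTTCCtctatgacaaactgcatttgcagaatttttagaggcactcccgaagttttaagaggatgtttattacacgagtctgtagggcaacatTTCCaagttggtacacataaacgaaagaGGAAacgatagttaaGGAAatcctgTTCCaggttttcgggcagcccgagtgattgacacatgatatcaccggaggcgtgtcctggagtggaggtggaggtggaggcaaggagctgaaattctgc
SPRY2, chr13:80915262-80915511, minus strand: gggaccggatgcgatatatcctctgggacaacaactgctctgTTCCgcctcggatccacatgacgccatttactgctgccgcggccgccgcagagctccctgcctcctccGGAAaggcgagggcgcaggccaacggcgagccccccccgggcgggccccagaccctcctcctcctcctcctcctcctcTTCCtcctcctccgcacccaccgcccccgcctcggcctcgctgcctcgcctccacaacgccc
The core occurred 6 times before DUSP6, 5 times before SPRY1 and 3 times before SPRY2, beside a median of 3 (quartiles 2 and 4) over the same 250 bases of 35116 windows. At least 1 core was present in all 10 windows of the feedback genes and in 95.5% of all windows of 300 bases. The TCF core ATCAAAG, searched on both strands, occurred in 2.62% of all windows and in 0 of the 10. The longer ETS site CCGGAAGT occurred in 4.14% and the cAMP response element TGACGTCA in 1.85% of all windows, and neither in the 10. The AP-1 site TGACTCA occurred in 4.95% of all windows and in 1 of the 10, at a SPRED2 start.

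Wnt-positive and Wnt-negative sublines were then compared within each cell line. In MDA-MB-436, DUSP4 and SPRY1 were called higher in 7TGP-POS cells in low serum, 2 of the 10 genes beside 10.5% of all tested genes called in either direction. In standard serum 1 of the 10, DUSP4, was called, beside 12.5% of all genes. By adjusted p alone, without the fold limit, 8 of the 10 passed in low serum and 7 in standard serum, beside 52.0% and 49.5% of all tested genes. DUSP4 rose 2.28-fold in low serum (log2 1.19 ± 0.06, edgeR adjusted p = 3.37e-21) and 2.20-fold in standard serum (log2 1.14 ± 0.08, edgeR adjusted p = 1.20e-09). In low serum its difference fell under the limit on the TPM scale, with 0.90 for log2(TPM + 1), where the median of all genes was -0.15. SPRY1 rose 2.66-fold in low serum (log2 1.41 ± 0.09, edgeR adjusted p = 3.96e-17) and by a smaller 0.61 ± 0.09 in standard serum (edgeR adjusted p = 2.62e-05). The 50 neighbours of either gene had medians between -0.08 and 0.13 in these comparisons.

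Most other feedback genes changed in MDA-MB-436 by less than the fold limit. DUSP5 was higher in 7TGP-POS cells by 0.97 in both serum conditions (SE 0.06 and 0.07), just under the limit of 1, and on the log2(TPM + 1) scale it passed in standard serum with 1.05. SPRY2 was higher by 0.46 ± 0.06 and 0.69 ± 0.07, and SPRED1 by 0.20 ± 0.05 and 0.39 ± 0.08, although in low serum SPRED1 lay at -0.05 on the log2(TPM + 1) scale. DUSP6 was lower in 7TGP-POS cells in low serum, by -0.91 ± 0.10 (edgeR adjusted p = 2.46e-10), and differed by 0.08 ± 0.11 in standard serum (edgeR adjusted p = 0.579). On the log2(TPM + 0.1) scale its low serum difference passed the limit at -1.12 (limma adjusted p = 1.42e-14), while DUSP4 fell under it at 0.93. Those low serum values rest on 131 to 269 counts per library. ETV4 and SPRED2 were also lower in low serum (-0.46 ± 0.06 and -0.42 ± 0.06), and neither passed in standard serum (-0.01 ± 0.08 and -0.14 ± 0.08). In low serum the 50 neighbours had a median of -0.003 for ETV4 and of -0.33 for SPRED2, the latter near SPRED2 itself. In standard serum SPRY4 (-0.20 ± 0.07) and ETV5 (0.23 ± 0.08) passed by edgeR's adjusted p, and in low serum neither did, with 0.03 ± 0.06 for SPRY4 (-0.22 on the log2(TPM + 1) scale) and -0.01 ± 0.05 for ETV5. The nuclear phosphatase genes DUSP4 and DUSP5 and the cytoplasmic DUSP6 thus differed in sign in MDA-MB-436 in low serum.

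**Figure D3:**
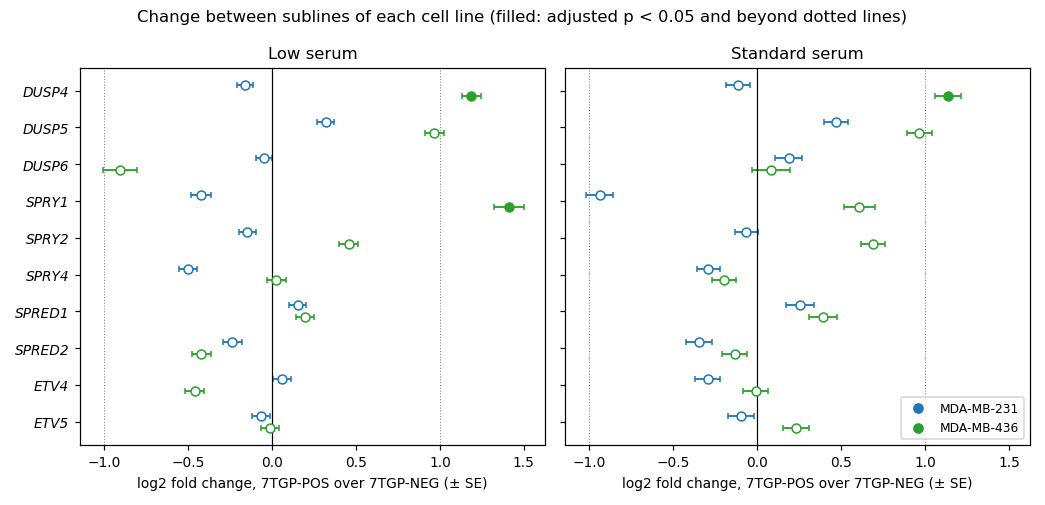
Log2 fold change of 7TGP-POS over 7TGP-NEG (± SE) for each feedback gene in MDA-MB-231 (blue) and MDA-MB-436 (green), with dotted lines at the limit of 1 in either direction and filled points for called genes. The filled points are DUSP4 in both serum conditions and SPRY1 in low serum, all in MDA-MB-436, and SPRY1 lay on opposite sides of 0 in the cell lines.

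In MDA-MB-231, 0 of the 10 feedback genes were called by edgeR or DESeq2 in either serum condition, beside 5.90% (low serum) and 7.69% (standard serum) of all tested genes. At an unadjusted p under 0.05, 7 of the 10 passed in each serum condition with either tool. By edgeR's adjusted p alone, 7 of the 10 passed in low serum (38.9% of all genes) and 6 in standard serum (33.0%), all with changes under the limit. SPRY1 was lower in 7TGP-POS cells by -0.42 ± 0.06 in low serum (edgeR adjusted p = 1.47e-07) and -0.94 ± 0.08 in standard serum (edgeR adjusted p = 3.86e-08). SPRY4 was lower by -0.50 ± 0.05 and -0.29 ± 0.07, and SPRED2 by -0.24 ± 0.06 and -0.35 ± 0.08. DUSP5 was higher by 0.32 ± 0.05 and 0.47 ± 0.07. SPRED1 was higher by 0.15 ± 0.05 and 0.25 ± 0.08, but lay at -0.05 on the log2(TPM + 1) scale in low serum, where the median of all genes was -0.13. DUSP6 differed by -0.05 ± 0.05 and 0.19 ± 0.08 and did not pass. DUSP4 and SPRY2 passed in low serum (-0.16 and -0.15), and ETV4 in standard serum (-0.30).

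The changes differed between the cell lines for several genes, by the interaction of cell line and reporter state in the same edgeR fit. For SPRY1 the change in MDA-MB-231 minus that in MDA-MB-436 was -1.83 ± 0.11 in low serum (edgeR adjusted p = 6.40e-18) and -1.55 ± 0.12 in standard serum (edgeR adjusted p = 1.31e-08). For DUSP4 it was -1.35 ± 0.07 and -1.25 ± 0.11. These 2 genes were called in each serum condition, beside 11.7% and 13.8% of all tested genes. By adjusted p alone 7 of the 10 passed in low serum and 6 in standard serum, beside 45.7% and 41.2% of all genes. SPRY2 (-0.60 and -0.75) and DUSP5 (-0.65 and -0.50) passed in both serum conditions, with the higher value in MDA-MB-436. For ETV4 the interaction had opposite signs, 0.52 in low serum and -0.29 in standard serum.

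Markers that moved with these comparisons are given beside them. The 5 mesenchymal markers summed to 2691 to 2752 TPM in MDA-MB-231 7TGP-NEG and 1239 to 1388 TPM in 7TGP-POS in low serum, and to 3987 to 4400 and 2046 to 2127 TPM in standard serum. In MDA-MB-436 the sums were 566 to 606 and 546 to 601 TPM in low serum, and 623 to 673 and 989 to 1029 TPM in standard serum. Of these 5 genes, VIM was called lower in the POS subline of MDA-MB-231 in low serum (-1.05), and VIM (-1.03) and FN1 (-2.14) in standard serum. In the POS subline of MDA-MB-436, FN1 (1.37) and CDH11 (1.11) were called higher in low serum, and CDH11 (2.49) in standard serum. Of 10 canonical Wnt target genes, 1 was called in MDA-MB-231 in low serum (LGR5, higher in POS cells) and 1 in standard serum (RNF43, higher). In MDA-MB-436 the calls were 2 in low serum (DKK1 higher, NKD1 lower) and 3 in standard serum (DKK1 higher, SP5 and RNF43 lower). Among all tested genes, 5.90% and 7.69% were called in MDA-MB-231 (low and standard serum), and 10.5% and 12.5% in MDA-MB-436. The part of these markers in the results for the feedback genes was not tested.

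The rest of the pathway was described by lists of genes written for this purpose. Of 21 genes of the RAS-ERK cascade itself, from adaptors to ERK and RSK kinases, 0 were called between sublines of either cell line in either serum condition by edgeR. The shares of all tested genes called were 5.90% (low serum) and 7.69% (standard serum) in MDA-MB-231, and 10.5% and 12.5% in MDA-MB-436. At an unadjusted p under 0.05 there were 11 (low serum) and 5 (standard serum) in MDA-MB-231 and 15 and 9 in MDA-MB-436, and DESeq2 also called 0. By edgeR's adjusted p alone 10 and 3 passed in MDA-MB-231, beside 38.9% and 33.0% of all genes. In MDA-MB-436 14 and 8 passed, beside 52.0% and 49.5%. Between the NEG sublines of the cell lines 4 cascade genes (low serum) and 5 (standard serum) were called, beside 41.9% and 46.7% of all tested genes called in either direction, and the list's median difference was 0.09 and 0.13. SOS2, an exchange factor for RAS, was higher in MDA-MB-231 (1.55 and 1.31), and the adaptor gene SHC1 was lower (-1.72 and -1.71). The MEK1 gene MAP2K1 lay at 117.9 and 121.3 CPM in MDA-MB-231 7TGP-NEG and 146.0 and 146.4 CPM in MDA-MB-436 7TGP-NEG in low serum. The cascade genes named here differed less between the cell lines than DUSP6 and DUSP4 did.

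**Figure D4:**
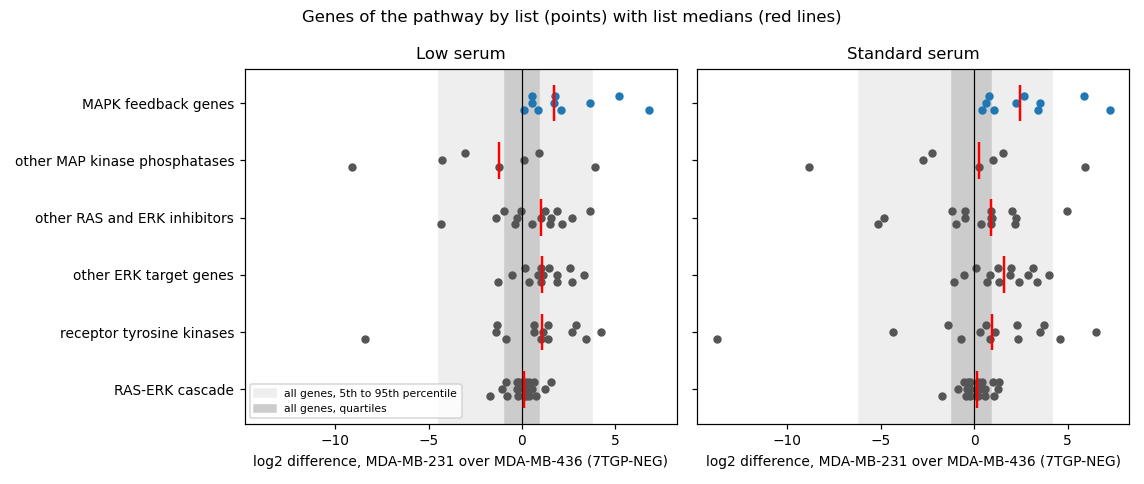
Log2 difference of MDA-MB-231 over MDA-MB-436 between the NEG sublines for the feedback genes (blue) and the other pathway lists (grey points) with list medians (red), in low serum (left) and standard serum (right), over the quartiles (dark band) and the 5th to 95th percentile (light band) of all tested genes. The medians were 1.72 and 2.45 for the feedback genes and 0.09 and 0.13 for the RAS-ERK cascade.

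Of 14 other ERK target genes, 9 were called higher and 1 lower in MDA-MB-231 between the NEG sublines in low serum, and 8 higher and 1 lower in standard serum, with medians of 1.06 and 1.61. Of all tested genes, 20.5% were called higher and 21.4% lower in low serum, and 21.3% higher and 25.4% lower in standard serum. The D-cyclin gene CCND1 differed by 3.30 and 2.89, the ETS factor gene ETV1 by 2.59 and 3.34 and the ephrin receptor gene EPHA2 by 1.87 and 2.39, while the cytokine gene LIF differed by -1.30 and -1.08. Between sublines of MDA-MB-231, edgeR called 1 of these 14 genes in standard serum, beside 7.69% of all tested genes. It was the immediate early gene FOS, which fell by 1.94 on the log2 scale in 7TGP-POS cells. In low serum edgeR and DESeq2 called 0, beside 5.90%, with 12 at an unadjusted p under 0.05 by edgeR. FOS differed by 0.17 in low serum (edgeR adjusted p = 0.242). DESeq2 also called IER3 in MDA-MB-231 in standard serum (1.36, DESeq2 adjusted p = 0.0485), where edgeR gave 1.37 ± 0.53 (edgeR adjusted p = 0.132). In MDA-MB-436 edgeR called 0 in low serum (10.5% of all genes), with 10 at an unadjusted p under 0.05. DESeq2 called PLAUR there (-1.03, edgeR -0.99). In standard serum PLAUR was called lower in POS cells, 1 gene beside 12.5% of all genes. The list's median there was 0.40, with 9 genes passing edgeR's adjusted p upward and 1 downward, beside 49.5% of all genes.

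Of the 7 other MAP kinase phosphatase genes, 1 was called higher and 4 lower in MDA-MB-231 between the NEG sublines in low serum. In standard serum 2 were called higher and 3 lower. The shares of all tested genes were 20.5% higher and 21.4% lower in low serum, and 21.3% higher and 25.4% lower in standard serum. DUSP9, DUSP16 and DUSP8 were lower in MDA-MB-231 between the NEG sublines in both serum conditions. DUSP9, another ERK phosphatase, was at 3 counts or fewer in every MDA-MB-231 library, and at 29.4 to 33.1 CPM in MDA-MB-436 7TGP-NEG and 13.0 to 13.2 CPM in 7TGP-POS in low serum. Its decrease in Wnt-positive MDA-MB-436 cells was called in both serum conditions (-1.27 ± 0.09 and -1.20 ± 0.13). It was the 1 call of the list there, beside 10.5% and 12.5% of all tested genes. In MDA-MB-231, 2 were called in low serum, DUSP8 higher and DUSP2 lower in POS cells, beside 5.90%. DESeq2 did not call this DUSP2 difference (DESeq2 adjusted p = 0.176). In standard serum edgeR and DESeq2 called 0 in MDA-MB-231, beside 7.69%, with 6 at an unadjusted p under 0.05 by edgeR. DUSP16, which acts mainly on JNK and p38, differed between the NEG sublines by -3.05 and -2.26, and DUSP8 by -4.26 and -2.74. DUSP7, also a phosphatase of ERK, was higher in MDA-MB-231 by 0.94 and 1.52, the latter called. DUSP2 was called higher in both serum conditions, on 13 and 18 counts (low serum) and 19 and 42 counts (standard serum) for 7TGP-NEG cells of MDA-MB-231, beside at most 1 count per 7TGP-NEG library of MDA-MB-436. DUSP1 differed by -1.21, which was called, and by 0.23, and DUSP10 by 0.13 and 0.98, neither called. The list's median was -1.21 in low serum and 0.23 in standard serum.

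Among 15 other RAS and ERK inhibitor genes, 8 were called higher and 1 lower in MDA-MB-231 between the NEG sublines in low serum, and 4 higher and 3 lower in standard serum, beside 20.5% higher and 21.4% lower (low serum) and 21.3% higher and 25.4% lower (standard serum) of all tested genes. ERRFI1, an ERK-induced inhibitor of EGFR, differed by 3.66 and 4.97, the RAS GTPase-activating gene RASA1 by 2.14 and 2.22, and IL17RD, also called Sef, by 2.66 and 2.01. RASAL2, another RAS GTPase-activating gene, was the 1 gene of this list that edgeR called between sublines, with higher levels in Wnt-positive MDA-MB-436 cells (1.02 ± 0.06 in low and 1.28 ± 0.09 in standard serum). In low serum DESeq2 gave 0.98 for RASAL2 and called 0 genes of the list, with 7 at an unadjusted p under 0.05. Of 14 receptor tyrosine kinase genes, 8 were called higher and 3 lower between the NEG sublines in low serum, and 7 higher and 3 lower in standard serum, to be read against the same shares of all tested genes. AXL differed by 3.42 and 4.61, MET by 1.41 and 2.28 and EGFR by 1.37 and 2.32. In contrast, FGFR2 was at 3 counts or fewer in each MDA-MB-231 7TGP-NEG library and at 30.3 to 50.6 CPM in MDA-MB-436 7TGP-NEG. Between sublines of MDA-MB-436, 4 of these 14 genes were called in low serum, beside 10.5% of all tested genes. FGFR3, PDGFRB and KIT were higher in POS cells and FGFR2 was lower. In standard serum AXL, PDGFRB and KIT were called, all 3 higher, beside 12.5%. AXL rose in POS cells in standard serum by 1.12 ± 0.08, with 68.9 and 71.9 CPM in NEG and 159.7 and 159.8 CPM in POS libraries. In MDA-MB-231, 2 were called in low serum (KIT higher, FGFR3 lower) and 0 in standard serum, beside 5.90% and 7.69%. DESeq2 did not call KIT in MDA-MB-231.

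The genes whose pattern over the 8 groups lay closest to each feedback gene were found by the root mean square difference of group means of log2 CPM, centred within each serum condition, over 12492 genes. For SPRY2 these were SEC14L1, PHLDA1 and IGF2BP2, at 0.128, 0.141 and 0.141. PHLDA1, itself one of the ERK target genes listed, was at 977 to 1025 CPM in MDA-MB-231 and 281 to 307 CPM in MDA-MB-436 in low serum. For DUSP6 they were VAMP8, COX7B2 and TMEM92, at 0.225 to 0.268, and for DUSP4 CRACR2B, INPP4B and SIDT1, at 0.188 to 0.271. DUSP5 lay closest to OPN3 (0.157) and SPRY4 to ANXA5 (0.0915). For SPRED1, SPRED2, ETV4 and ETV5 the nearest gene lay at 0.0496 to 0.0791. The distance is not scaled by how much a gene varies over the groups. Small distances of genes that vary little therefore cannot show a closer shared pattern than the larger ones of DUSP6 and DUSP4.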

How the data were processed

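Per the methods, the authors aligned reads to hg19 with STAR (2.6.1a in the submitters' processing notes), after a check against ribosomal RNA with Bowtie, and counted read pairs on Gencode v19 genes. They deposited whole counts without normalization or filtering, and TPM values made by the authors in a way not given in the sources used here. Low and standard serum were fitted separately. Symbols, biotypes and positions came from Gencode v44 on GRCh37. Protein-coding genes with at least 10 summed counts were fitted with edgeR 4.0.16 (TMM, robust quasi-likelihood, 4 groups in 1 model, adjusted p under 0.05 and absolute log2 difference of at least 1). The standard error is the absolute log2 difference divided by the square root of F. Alternatives used DESeq2 1.42.0, limma 3.58.1 on log2(TPM + 1) and log2(TPM + 0.1), other filters, left-out libraries and a replicate block. R was 4.3.3 and Python 3.11.15. On counts simulated for MDA-MB-231 POS against NEG, 99% (low serum, 16069 genes) and 99.5% (standard serum, 15414 genes) of 200 genes changed 4-fold were called, with 2 of 15869 and 0 of 15214 others. The simulation gave all genes the same spread, smaller than that estimated in standard serum, and changed only genes above a minimum mean count. A 4-fold change lies well beyond the limit, so the simulation cannot tell how genes near the limit fare.

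The feedback genes and all lists were chosen with earlier results of these data known. Text names all 10 feedback genes, up to 4 called genes per list and comparison by adjusted p, RAS, RAF, MEK and ERK genes by level, and the 3 nearest patterns. Genes printed from these are a subset chosen after their values were seen. GGAA was counted after the longer motifs proved rare. Protein sequences were not used here. Some items that the naming rule selects are not reported here.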

Additional observations from a re-analysis of the deposited data

Results flagged for a closer look

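Several feedback genes changed differently between the Wnt-positive and Wnt-negative sublines of the cell lines, by the interaction term of edgeR's quasi-likelihood test (n = 2 libraries per group, Benjamini-Hochberg adjusted p under 0.05 over all tested genes). Values are the log2 change in MDA-MB-231 minus that in MDA-MB-436. In low serum the difference was -1.83 for SPRY1, -1.35 for DUSP4, -0.65 for DUSP5, -0.60 for SPRY2 and -0.53 for SPRY4, and it was positive for DUSP6 (0.86) and ETV4 (0.52). In standard serum it was -1.55 for SPRY1, -1.25 for DUSP4, -0.75 for SPRY2, -0.50 for DUSP5, -0.33 for ETV5 and -0.29 for ETV4. SPRY1, DUSP4, SPRY2 and DUSP5 were lower in this difference in both serum conditions, and ETV4 had opposite signs in them. The serum conditions were not compared by a test.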

How the results depend on the processing

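Over 1680 values of the feedback genes under alternative settings, 1633 kept their direction and their side of the threshold, 12 lost a call, 3 gained one and 32 changed sign. The cause of these changes was not tested. Without the fold limit, 7 and 6 genes passed in MDA-MB-231 (low, then standard serum), beside 38.9% and 33.0% of all tested genes. In MDA-MB-436 8 and 7 passed (52.0% and 49.5%), and for the interaction 7 and 6 (45.7% and 41.2%). Between the NEG sublines 9 and 10 passed, beside 12730 of 16069 and 12140 of 15414 tested genes. Between the POS sublines 10 passed in each serum condition, beside 12607 of 16069 and 12239 of 15414. With log2(TPM + 1), 1 gene was called in MDA-MB-436 in low serum and 2 in standard serum, and 4 between the POS sublines in low serum; log2(TPM + 0.1) gave 2 in MDA-MB-436 in low serum, with DUSP6 (-1.12) in place of DUSP4 (0.93), 2 in standard serum and 4 between the POS sublines in low serum. Leaving out 1 library at a time gave 0 to 0 calls in MDA-MB-231, 2 to 2 (low) and 1 to 1 (standard serum) in MDA-MB-436, 2 to 2 for the interaction, 6 to 6 (low) and 6 to 7 (standard) between NEG sublines, and 7 to 7 (low) and 6 to 6 (standard) between POS sublines. The count of 6 came without MDA-MB-231 7TGP-NEG replicate 1 or MDA-MB-436 7TGP-NEG replicate 1. A fit that left a group with 1 library assumes that it varies like the other groups.

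The values that changed sign lay under the fold limit, although SPRED2 between the NEG sublines in low serum passed limma's adjusted p on both TPM scales (0.0258 and 0.0245). On log2(TPM + 1) and log2(TPM + 0.1) in low serum, MDA-MB-231 POS against NEG gave -0.0488 and -0.0496 for SPRED1 and -0.14 and -0.14 for ETV4, and MDA-MB-436 gave -0.22 and -0.22 for SPRY4 and -0.0507 and -0.0518 for SPRED1. For SPRED2 the same scales gave -0.29 and -0.30 between NEG sublines and -0.0666 and -0.0690 between POS sublines in low serum, and -0.0208 and -0.0211 between POS sublines in standard serum. ETV4 gave 0.0859 and 0.0869 in MDA-MB-436 in standard serum, and 0.0027 with only the groups compared. SPRY4 in MDA-MB-436 in low serum was -0.0087 with DESeq2 and with its size factors. The SPRED1 interaction in low serum was 0.0069 with DESeq2 and with its size factors, 0.0036 with all biotypes, and 0.0019 and 0.0022 on the TPM scales. Over left-out libraries, values in MDA-MB-436 in low serum ranged from -0.0198 (without POS replicate 2) to 0.0391 for SPRY4 and from -0.0771 to 0.0215 (without NEG replicate 1) for ETV5. The low serum interaction ranged from -0.1122 to 0.0295 (without MDA-MB-436 POS replicate 2) for SPRED1 and from -0.10 to 0.0183 for ETV5 without MDA-MB-436 POS replicate 1. In standard serum, DUSP6 in MDA-MB-436 ranged from -0.10 (without POS replicate 2) to 0.2435, and its interaction from -0.0651 (without MDA-MB-436 POS replicate 1) to 0.2797.

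Replicate numbers are shared by all groups. With the replicate number as a block, the counts of calls were 0, 2, 2, 6 and 7 in low serum (MDA-MB-231, MDA-MB-436, interaction, NEG sublines, POS sublines) and 0, 1, 2, 7 and 6 in standard serum, as without it. Deviations of same-numbered libraries from their group means correlated across genes by -0.10 to 0.02 in low serum and -0.02 to 0.15 in standard serum, so the numbers were treated as names only. Depth limits DUSP6 and SPRY1 in MDA-MB-436 most, with 131 and 198 counts in their lowest low serum libraries.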
